A study of Rattus norvegicus with 8 samples.

Results

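A group of 9 secreted regulators of the stroma were followed in the ventral prostate of TRAP rats with and without telmisartan. They were the CCN proteins Ccn1 and Ccn2, the thrombospondins Thbs1 and Thbs2, periostin (Postn), the latent TGF-beta binding protein Ltbp1, and the ligands Tgfb1, Tgfb2 and Tgfb3. Members were taken by gene name, including the older names Cyr61 for Ccn1 and Ctgf for Ccn2. The 9 genes had 11 of the 41012 probes, and 8 of the 9 were among the 23205 genes tested, because the only probe of Thbs1 was too dim. In treated rats Ccn2, Ltbp1, Thbs2, Ccn1 and Postn were lower than in control rats at an unadjusted limma p under 0.05, for Ccn1 with only the brighter of its probes and for Postn in 15 of 25 alternative settings. The 3 ligands showed no such difference, and no member passed the threshold of 0.05 after Benjamini-Hochberg adjustment over all genes.

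TRAP rats are a transgenic model in which a probasin promoter drives the simian virus large T antigen in prostate epithelium, so that adenocarcinoma develops. Heterozygous male rats of the SD strain label were used, and all 8 carried the transgene. Telmisartan, a blocker of the type 1 angiotensin II receptor, was given in drinking water at 10 mg/kg/day for 12 weeks from the age of 3 weeks to 4 rats (302, 303, 305 and 306), and 4 rats without the drug were controls (102, 103, 104 and 106). Prostates were taken at 15 weeks of age. The label of the treated arrays names 2 doses, and the higher one is tied to the arrays by the series text. The lower dose was not analysed here. Each array held Cy5-labelled cRNA of 1 rat and Cy3-labelled cRNA of normal ventral prostate from F344 rats aged 6 weeks. Strain, age, transgene and dye all set the reference apart from the samples, since no array had swapped dyes.

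Matricellular proteins are secreted into the extracellular matrix, where they modify signalling more than they build structure. CCN proteins bind integrins and heparan sulphate proteoglycans, and their genes respond quickly to mechanical load, serum and TGF-beta. TGF-beta is secreted in a latent complex, is stored in the matrix through LTBP proteins, and is released by integrins, proteases or thrombospondin-1. In prostate tumours these genes are mainly studied as products of activated fibroblasts and smooth muscle, although epithelial cells also make several of them.

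The 250 bases before the start of Ccn1 and Ccn2 are shown because both are textbook targets of TEAD transcription factors, and the values of these genes open the results. Sequences are from RefSeq on rat assembly GRCr8, 5′ to 3′ on the strand of the gene. Capitals mark GGAATG or its reverse complement CATTCC, the TEAD motif searched on both strands.
Ccn1, chr2:237225690-237225939, minus strand: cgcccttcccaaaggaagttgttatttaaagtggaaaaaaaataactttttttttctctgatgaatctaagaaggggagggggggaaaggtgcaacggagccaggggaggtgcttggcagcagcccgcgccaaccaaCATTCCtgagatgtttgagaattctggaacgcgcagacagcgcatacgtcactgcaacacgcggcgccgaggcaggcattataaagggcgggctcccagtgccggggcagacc
Ccn2, chr1:22624615-22624864, minus strand: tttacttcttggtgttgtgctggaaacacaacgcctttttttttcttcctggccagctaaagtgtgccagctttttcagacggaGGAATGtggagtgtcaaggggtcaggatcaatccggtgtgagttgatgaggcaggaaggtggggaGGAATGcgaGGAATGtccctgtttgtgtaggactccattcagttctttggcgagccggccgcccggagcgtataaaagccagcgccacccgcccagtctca
The Ccn2 window held 3 copies on the gene strand, starting 166, 101 and 92 bases before the start. The Ccn1 window held 1 copy on the opposite strand, 113 to 108 bases before the start. Promoters were found for 8 of the 9 members, Thbs2 being the other one, and 3 of these 8 held the motif (Ccn1, Ccn2 and Thbs1). The motif occurred in 11.8% of 27457 rat promoter windows of the same length. The SMAD box CAGAC, a core motif for Smad binding, was in 4 of the 8 member windows and in 42.8% of all windows. No member window held the AP-1 motif TGANTCA, which 6.4% of all windows held. Neither the CArG motif nor the EGR motif was found in them, against 1.5% and 2.5% of all windows. A match describes letters only and shows no binding.

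Ccn1 and Thbs2 each had a pair of probes, and their starts are shown because the probes of a gene did not give the same size of difference. The first 30 of 60 bases are given, except for the dimmer Thbs2 probe, which is given whole.
Ccn1, brighter probe A_42_P750683: ttgaatgtttttatttatcaaaatgtagct
Ccn1, dimmer probe A_44_P218896: ccacaagttcagggactaaaggtctcctgg
Thbs2, brighter probe A_42_P521210: aattgggagacttctgaccatgaggatgtg
Thbs2, dimmer probe A_44_P248090: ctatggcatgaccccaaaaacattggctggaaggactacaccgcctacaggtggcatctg
The Ccn2 probe was printed in 10 spots on every array, as was the probe of Tgfb1. The remaining probes had 1 spot each.

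Values below are log2 ratios of Cy5 over Cy3 after loess normalisation. Between 64.7% and 76.8% of spots other than control spots were well above background in Cy5 on control arrays, and 59.2% to 68.1% on treated arrays. Arrays correlated with each other at 0.83 to 0.96. Each slide held 2 arrays of each group, slide 1 with rats 102, 103, 302 and 303 and slide 2 with the others. On both slides the control arrays lay at positions 3 and 4 and the treated arrays at positions 1 and 2, so position and group cannot be told apart. All of the 7 luminal epithelial markers and 5 basal epithelial markers measured were above background on all 8 arrays, and Epcam was not measured. A gene called not measured had no usable probe left after filtering or no probe on the array, and these cases are not told apart here. Over all 23205 genes the median difference between treated and control rats was -0.002, and 0 genes (0%) passed the adjusted limma threshold. At an unadjusted p under 0.05, 482 genes were lower in treated rats, which is 2.08% of the genes tested, and 636 were higher, which is 2.74%. Of the 8 members tested, 5 were in the lower set and 0 in the higher set. The median difference of the 8 members was -0.50, and 6 of them had a lower mean in treated rats, beside 50.6% of all genes. The members were chosen with earlier results of these data known, so these counts are no test of the set.

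**Figure D1:**
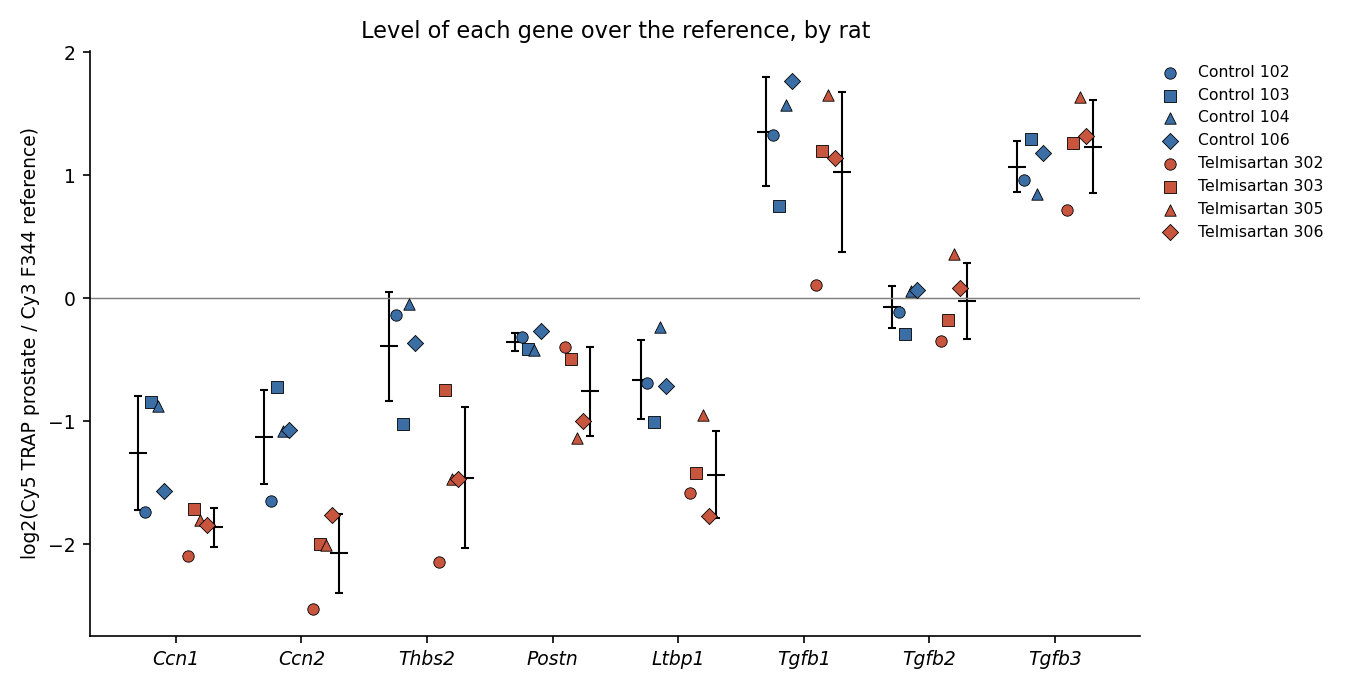
Log2 ratio of Cy5 (TRAP ventral prostate) over Cy3 (F344 reference) for the 8 members tested; each point is 1 rat, and dashes with bars are group means with 1 SD. The 4 treated rats lie below all 4 control rats only for Ccn2, and for Ccn1, Thbs2 and Ltbp1 the groups overlap at 1 or a few rats.

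Ccn2, also known as connective tissue growth factor, is a CCN protein that promotes matrix production and is induced by TGF-beta and by angiotensin II in many tissues. Its log2 ratio was -1.65, -0.72, -1.08 and -1.07 in control rats 102, 103, 104 and 106. In treated rats 302, 303, 305 and 306 it was -2.53, -1.99, -2.0 and -1.76. The highest treated rat lay below the lowest control rat, so the groups did not overlap. Such a lack of overlap, with treated rats lower, was seen for 286 genes, 1.23% of those tested, and for 1 of the 8 members. The means were -1.13 ± 0.38 (SD, n = 4) and -2.07 ± 0.32 (SD, n = 4). The difference was -0.94 with a standard error of 0.21 and a 95% interval from -1.42 to -0.47, a level 1.92-fold higher in control rats. The limma p was 0.00127 unadjusted, rank 32 of all genes, and 0.888 after adjustment. A two-sided exact permutation test gave p = 0.0286, the smallest value that 4 against 4 rats allow.

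The 10 Ccn2 spots of an array differed little from each other, with an SD between 0.017 and 0.039. The SD between rats of a group was 0.38 in control and 0.32 in treated rats, so nearly all of the spread lay between arrays rather than between spots. As each rat had a single array, rat and array cannot be told apart. Normalised Cy5 intensity, the channel of the TRAP rat, was 12.37 ± 0.36 in control and 11.44 ± 0.33 in treated rats on the log2 scale. Cy3 intensity, the channel of the reference, was 13.50 ± 0.02 and 13.51 ± 0.01. The difference of the ratio lay in the Cy5 values. Cy3 held the F344 reference on every array and brightness was scaled between arrays, so a steady Cy3 was largely set by the design.

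**Figure D2:**
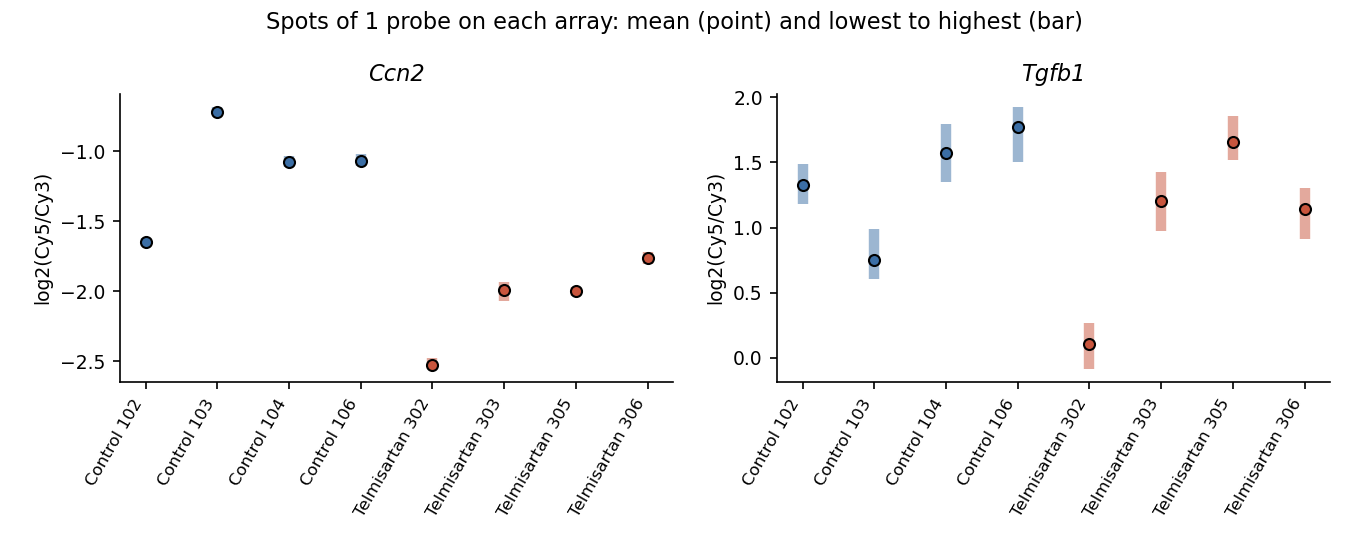
Log2 ratio of the 10 spots of the Ccn2 probe (left) and the Tgfb1 probe (right) on each array; points are means, bars run from the lowest to the highest spot, blue is control and red is telmisartan. The Ccn2 spots of an array nearly coincide, while rats range from -2.53 to -0.72, and Telmisartan 302 is lowest for both genes.

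Ccn1, also known as Cyr61, is an immediate early gene whose protein binds integrins in adhesion and wound repair. Its brighter probe read -1.74, -0.84, -0.87 and -1.56 in control rats, in the order given above. Treated rats read -2.09, -1.71, -1.80 and -1.84. Control rats formed a high pair (103 and 104) and a low pair (102 and 106), and Telmisartan 303 lay just above Control 102. The difference was -0.61 with a standard error of 0.21, and limma gave p = 0.0153 unadjusted and 0.981 adjusted, beside 0.0571 in the exact permutation test. The dimmer probe differed by -0.18 with a standard error of 0.17 and an unadjusted limma p of 0.332. Its values ran from -1.28 to -0.68 in control rats and from -1.60 to -0.84 in treated rats, which overlap widely. The size of the Ccn1 difference therefore depended on the probe, and which of the probes reads the transcript better was not tested. Without Control 103 the difference of the brighter probe was -0.47, and without both Control 103 and Telmisartan 302 it was -0.39 and no longer at an unadjusted limma p under 0.05.

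Thbs2 encodes thrombospondin-2, an inhibitor of blood vessel growth made mainly by fibroblasts. Its brighter probe read -0.13, -1.02, -0.04 and -0.36 in control rats and -2.15, -0.75, -1.47 and -1.47 in treated rats. Telmisartan 302 was far below the rest, while Telmisartan 303 lay above Control 103, the low value of the control group. The difference was -1.07 with a standard error of 0.29 and a 95% interval from -1.72 to -0.41, and limma gave p = 0.00469 unadjusted and 0.922 adjusted, beside an exact permutation p of 0.0571. The dimmer probe went the same way by a smaller amount, -0.55 with a standard error of 0.16 and an unadjusted limma p of 0.00465. Its values were 0.10, -0.38, -0.07 and 0.19 in control rats and -0.83, -0.24, -0.68 and -0.61 in treated rats, with the same rats at the edges. Normalised Cy5 intensity differed by -1.20 between the groups and Cy3 intensity by -0.13. Slide 1 alone gave -0.87, there not at an unadjusted limma p under 0.05, and slide 2 alone gave -1.26.

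Thbs1 encodes thrombospondin-1, which can activate latent TGF-beta and is released by platelets. Its single probe was well above background in Cy5 on 3 of 4 control arrays and on 0 of 4 treated arrays, and in Cy3 on 0 of 8. The normalised Cy5 intensity averaged 6.81 in control rats and 6.58 in treated rats on the log2 scale. Since 1 control array and all treated arrays were not well above background, no fold is given. The log2 ratio showed no such difference, at 0.36, 0.16, 0.31 and 0.31 in control rats and 0.17, 0.27, 0.18 and 0.44 in treated rats. It was not part of the genes tested, and a difference in Thbs1 was not detectable at this brightness.

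**Figure D3:**
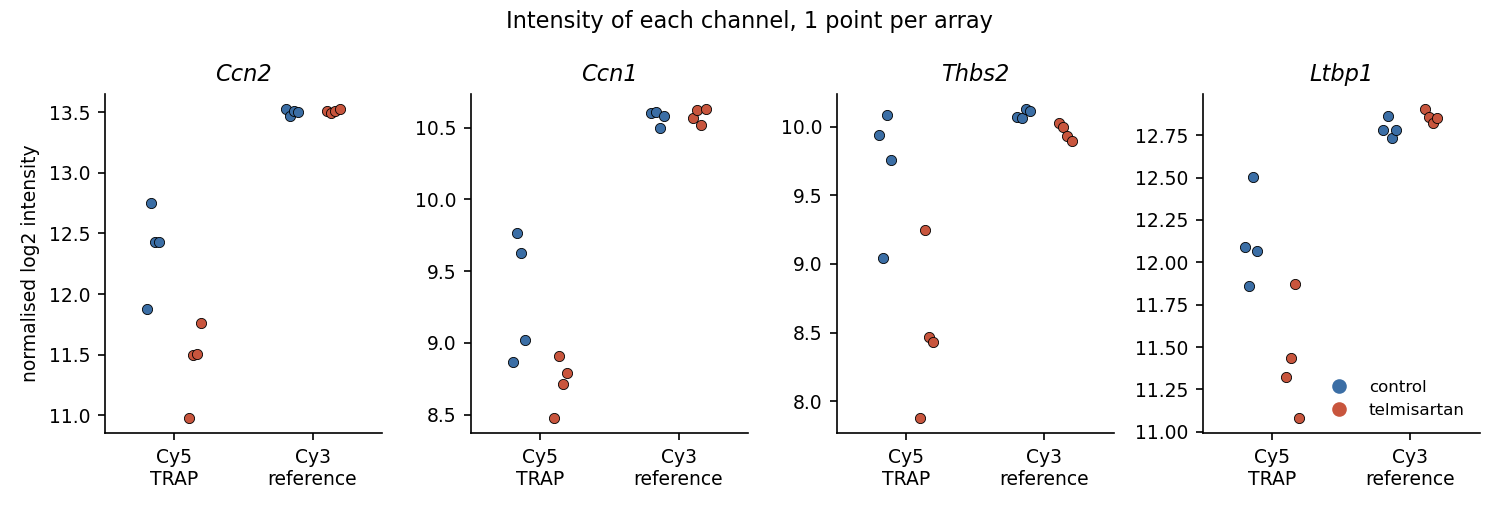
Normalised log2 intensity of Cy5 (TRAP rat) and Cy3 (F344 reference) for 4 members; each point is 1 array, blue for control and red for telmisartan, and each panel has its own scale. The Cy3 points of Ccn2 lie close together (SD 0.02 and 0.01), whereas its Cy5 points in treated rats (mean 11.44) all lie below those in control rats (mean 12.37).

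Postn encodes periostin, a matrix protein of activated fibroblasts that is induced by TGF-beta. Control rats lay close together at -0.32, -0.41, -0.42 and -0.27. Treated rats read -0.40, -0.50, -1.14 and -0.99, so that 302 and 303 lay at or just below the control values while 305 and 306 lay well below. The difference was -0.40 with a standard error of 0.17, and limma gave p = 0.0355 unadjusted and 0.981 adjusted, beside an exact permutation p of 0.0857. The low pair were the treated rats of slide 2, where the difference was -0.72, against -0.08 on slide 1. Whether the slides differed in this was not tested. Postn was no longer at an unadjusted limma p under 0.05 without Telmisartan 305 (-0.28) or 306 (-0.32), nor without Control 102, 104 or 106 (-0.39, -0.42 and -0.37). The same held on slide 1, with median centring, with the scanner or deposited log ratios and in the Cy5 channel alone.

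Ltbp1 anchors the latent TGF-beta complex to fibrillin and fibronectin fibres. Control rats read -0.69, -1.01, -0.23 and -0.71, and treated rats -1.58, -1.42, -0.95 and -1.77. The groups met at a single point, where Telmisartan 305 lay slightly above Control 103. The difference was -0.77 with a standard error of 0.20 and a 95% interval from -1.22 to -0.32, and limma gave p = 0.00346 unadjusted and 0.922 adjusted, beside an exact permutation p of 0.0571. Cy5 intensity differed by -0.70 and Cy3 intensity by 0.07. On the separate slides the difference was -0.65 and -0.89.

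Tgfb1, the ligand most studied in fibrosis and immune suppression, read 1.33, 0.75, 1.57 and 1.77 in control rats and 0.11, 1.20, 1.66 and 1.14 in treated rats. Telmisartan 302 stood apart at the low end and Control 103 was the lowest control, and the other 6 rats were intermixed. The difference was -0.33 with a standard error of 0.32 and a 95% interval from -1.04 to 0.38 (exact permutation p = 0.457). It was -0.02 without Telmisartan 302, -0.54 without Telmisartan 305, -0.53 without Control 103 and -0.19 without Control 106. The 10 spots of an array had an SD of 0.094 to 0.160, against 0.44 and 0.65 between the arrays of the rats of a group.

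Tgfb3, the ligand linked to scar-poor repair and palate closure, read 0.96, 1.30, 0.85 and 1.18 in control rats and 0.72, 1.26, 1.64 and 1.32 in treated rats. Treated rats included both the lowest and the highest value of the 8. The difference was 0.16 with a standard error of 0.19 and a 95% interval from -0.25 to 0.58 (exact permutation p = 0.514). Slide 1 alone gave -0.14 and slide 2 alone 0.46, the latter at an unadjusted limma p under 0.05, as was the 0.33 without Telmisartan 302. Such a p was seen in 3 of 25 alternatives. The difference was 0.03 without Telmisartan 305 and 0.09 without Control 104.

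Tgfb2 was near the limit of detection, with Cy5 well above background on 4 of 4 control and 2 of 4 treated arrays and Cy3 on 1 of 8. Ratios were -0.11, -0.29, 0.06 and 0.07 in control rats and -0.35, -0.18, 0.36 and 0.08 in treated rats. The groups overlapped throughout. The difference was 0.05 with a standard error of 0.16 and a 95% interval from -0.31 to 0.40, and its sign changed under median centring and in the Cy5 channel alone. With the log ratio of the scanner software it was 0.64 with a standard error of 0.46. At this brightness the interval of the reported fit does not bound a difference in Tgfb2.

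Tumour-bearing prostates were not compared with a matched normal prostate, so levels over the reference describe the arrays rather than the tumour. Tgfb1 and Tgfb3 were above the reference in control rats, at 1.35 ± 0.44 and 1.07 ± 0.20 (SD, n = 4), or 2.56-fold and 2.10-fold, and with median centring in place of loess both were higher still. Among probes of similar brightness, 91.5% and 89.0% had lower ratios. Ccn1 and Ccn2 were below the reference with loess, at -1.25 and -1.13, but with median centring Ccn1 was at -0.18 and Ccn2 at 0.15. Ltbp1, Thbs2 and Postn, at -0.66, -0.39 and -0.35 with loess, were above the reference with median centring, at 0.60, 0.68 and 0.59. Median centring moved the median probe from 0.06 to 0.67, and probes as bright as Ccn2 from 0.02 to 1.30. With median centring, probes as bright as Ltbp1, Thbs2 and Postn had medians of 1.29, 1.06 and 0.99, so these genes stayed below such probes. For Tgfb1 and Tgfb3, at 2.13 and 2.30 with median centring, the medians of such probes were 0.81 and 1.26. Relative to probes of similar brightness Ccn1 and Ccn2 were low in loess-normalised ratios, since 5.26% and 5.92% of such probes had lower values. No member was above 2-fold over the reference in all 8 rats, as were 865 genes (3.73%), nor below 2-fold in all 8 rats, as were 764 genes (3.29%).

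The rats differed in which members were low. Telmisartan 302 lay below the control mean for all 8 members, with a median deviation of -0.88, and Telmisartan 303, 305 and 306 for 7, 5 and 6 members. Control 103 had the highest Ccn1 and Ccn2 of any rat but the lowest Thbs2, Ltbp1 and Tgfb1 of the control rats. In that rat the CCN genes and the other 3 genes lay on opposite sides of the control mean. Without both Control 103 and Telmisartan 302 the differences were -0.66 for Ccn2, -1.05 for Thbs2, -0.84 for Ltbp1 and -0.54 for Postn, so that 4 of the 8 members were lower at an unadjusted limma p under 0.05. In that setting 1224 of the 23205 genes, or 5.27%, were lower at that p.

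**Figure D4:**
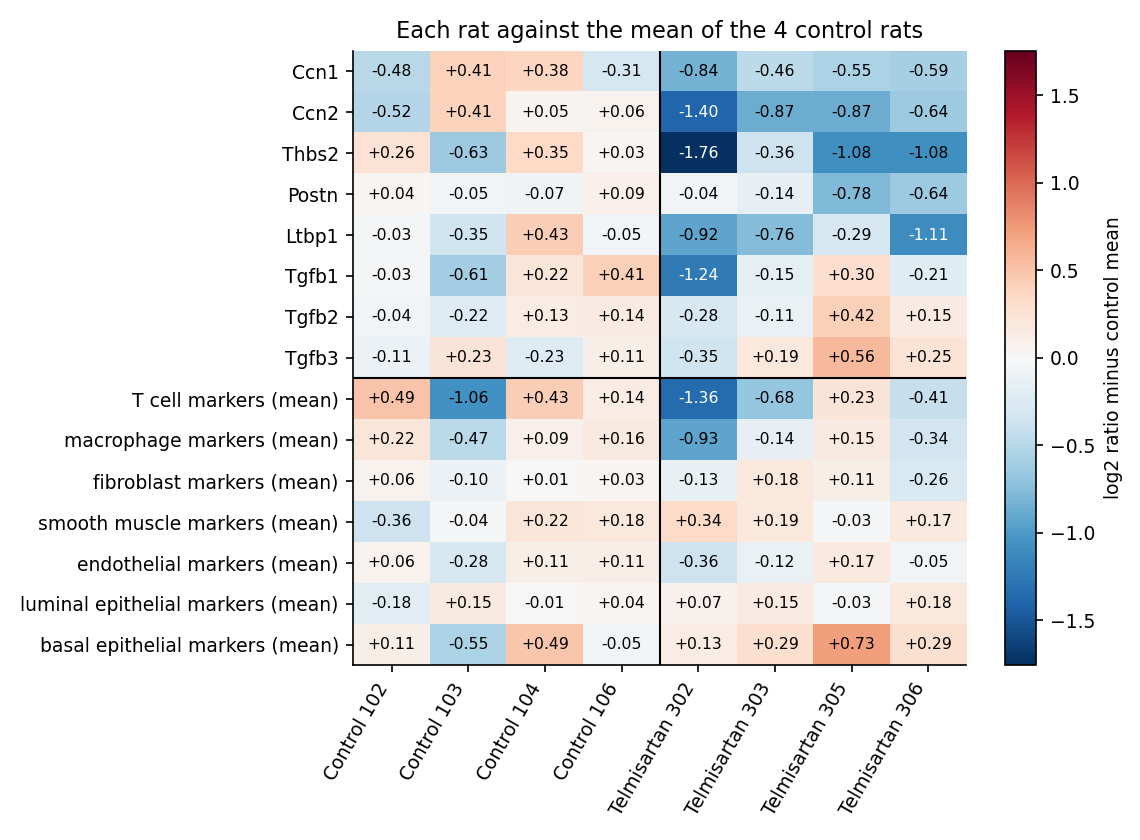
Log2 ratio of each rat minus the mean of the 4 control rats, for the 8 members (top) and for the mean of each marker list (bottom); blue is lower and red higher. Telmisartan 302 is low for Thbs2 (-1.76), Ccn2 (-1.40), Tgfb1 (-1.24) and T cell markers (-1.36), and Control 103 is low for T cell markers (-1.06) but high for Ccn2 (0.41).

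Cell type markers are given beside these values, since in bulk tissue fewer cells of a type and less RNA per cell cannot be told apart. All 8 fibroblast markers were measured, 3 lower and 5 higher in treated rats and 0 at an unadjusted p under 0.05, with a median difference of 0.01. The mean log2 ratio of the fibroblast list ran from -0.85 to -0.68 in control and from -1.01 to -0.56 in treated rats, so the groups overlapped. Of 6 smooth muscle markers 5 were higher, among them the contractile genes Myh11 (0.39) and Mylk (0.33), and the list means ran from -1.78 to -1.20 and from -1.45 to -1.08. Acta2 was not measured. All 9 T cell markers were lower, with a median of -0.56 and 0 at an unadjusted p under 0.05, and their list means ran from 0.63 to 2.18 in control and from 0.33 to 1.92 in treated rats. Of 8 macrophage markers 7 were lower, 2 of them at an unadjusted p under 0.05, Itgam at -0.55 and Mrc1 at -0.46. List means ran from 1.20 to 1.88 in control and from 0.74 to 1.82 in treated rats. Without Telmisartan 302 the T cell median was -0.30, with 9 of 9 markers lower, and the macrophage median -0.12, with 5 lower and 3 higher. In that setting 0 smooth muscle markers were higher at an unadjusted p under 0.05 in place of 2. Without both Telmisartan 302 and Control 103, 7 T cell and 4 macrophage markers were lower at that p, as were 1224 of all genes. Of 8 endothelial markers 6 were lower, and the median difference of the list was -0.05. Without Telmisartan 302, 4 endothelial markers were lower and 4 higher, with a median of 0.01. Pecam1, Robo4 and Tek were each well above background in Cy5 on 1 of 4 treated arrays, and Cdh5 on 2 of 4. Of 6 platelet markers, relevant to Thbs1 and Tgfb1, 3 were measured, 2 lower and 1 higher, with Gp5 at 0.29 and Pf4 at -0.50. The 2 neutrophil markers measured were both lower, with a median of -0.42, which was 0.01 without Telmisartan 302. All 5 basal epithelial markers were higher, with a median of 0.26, and 1 of them, the keratin Krt15 at 0.72, was higher at an unadjusted p under 0.05. Their list means ran from -1.77 to -0.72 in control and from -1.08 to -0.48 in treated rats. Of 7 luminal epithelial markers 3 were lower and 4 higher, with a median of 0.12, and with median centring 0 were lower and 7 higher. The part that these cell types play in the members' values was not tested.

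Relatives of the members outside the 9 were measured for 5 of 7 genes, and 3 were lower and 2 higher, with a median difference of -0.53. Ccn5, a CCN protein without the C-terminal domain, differed by -0.92 with a standard error of 0.24 (limma adjusted p = 0.922). Control rats averaged 0.33 and treated rats -0.60. Ccn4 differed by -0.53 with a standard error of 0.17 (limma adjusted p = 0.95) and Thbs4, a thrombospondin of tendon and muscle, by -0.91 with a standard error of 0.50 (limma adjusted p = 0.981). The former pair were at an unadjusted p under 0.05.

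**Figure D5:**
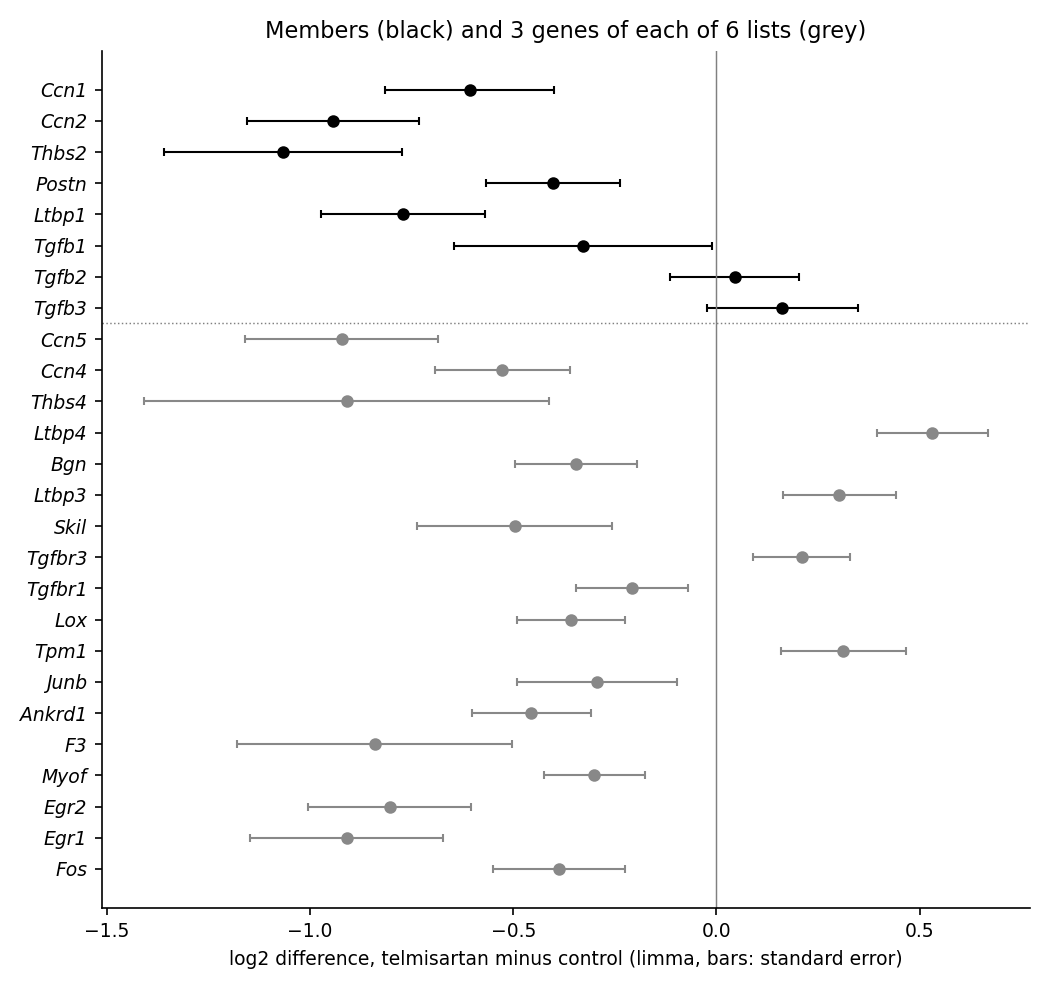
Log2 difference between treated and control rats from limma, with the standard error as bars, for the 8 members (black) and, in grey, for the 3 genes with the smallest unadjusted p in each of 6 pathway lists. Ccn2, Thbs2 and Ltbp1 lie at -0.94, -1.07 and -0.77, Tgfb1 at -0.33, Tgfb2 and Tgfb3 at 0.05 and 0.16, and Ltbp4 on the opposite side at 0.53; grey genes were picked by p and no gene passed adjustment.

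Genes that store and release TGF-beta went in both directions. Of 16 measured, 11 were lower and 5 higher, with 1 gene each way at an unadjusted p under 0.05 and a median of -0.06. Without Telmisartan 302 the split was 4 lower and 12 higher. Ltbp4, a binding protein of elastic fibres, differed by 0.53 with a standard error of 0.14 (limma adjusted p = 0.922), opposite to Ltbp1. Ltbp3 differed by 0.30, and Bgn, a proteoglycan that binds TGF-beta, by -0.35.

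Receptors and Smads showed 0 of 15 genes at an unadjusted p under 0.05 in either direction, with 12 lower, 3 higher and a median of -0.08. With median centring 8 were lower and 7 higher, and without both Control 103 and Telmisartan 302 2 were lower at that p. Tgfbr1, the signalling receptor, differed by -0.21, and Tgfbr3, the co-receptor betaglycan, by 0.21. Skil, a TGF-beta-induced inhibitor of Smads, differed by -0.50 with a standard error of 0.24. Smad7, an inhibitory Smad that TGF-beta induces, was at -0.35 and Tgfbr2 at -0.13, and both changed sign in at least 1 other setting.

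Of 15 target genes of TGF-beta reported here, 10 were lower and 5 higher, and 1 was lower and 0 higher at an unadjusted p under 0.05. With median centring 0 were lower and 1 higher at that p, and without Telmisartan 302 1 was lower and 2 higher. The median difference of the list was -0.16. Lox, which cross-links collagen and elastin, differed by -0.36 with a standard error of 0.13 (limma adjusted p = 0.981). Tpm1, a tropomyosin, differed by 0.31 and Junb, an AP-1 subunit, by -0.29, and Tgfbi by -0.23 with a standard error of 0.40 and a sign that changed in 1 of the other settings.

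Ccn1 and Ccn2 are also read as targets of YAP and TEAD, and of serum response factor. Of 17 YAP, TAZ and TEAD genes measured, 9 were lower and 8 higher, with 4 lower and 1 higher at an unadjusted p under 0.05 and a median of -0.004. Ankrd1 differed by -0.46 with a standard error of 0.15, F3, the tissue factor gene, by -0.84 with a standard error of 0.34, and Myof by -0.30. With median centring, and likewise without Telmisartan 302, 1 gene was lower at that p. Of 11 serum response factor and immediate early genes, 10 were lower and 1 higher, with 3 lower and 0 higher at that p and a median of -0.19. Egr1 and Egr2, immediate early zinc finger genes, differed by -0.91 with a standard error of 0.24 and by -0.80 with a standard error of 0.20. The limma adjusted p was 0.922 for Egr1 and 0.918 for Egr2. Fos differed by -0.39.

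Other matricellular genes had 0 of 7 at an unadjusted p under 0.05, with 5 lower and 2 higher. Spp1, which encodes osteopontin, was 4.90 above the reference in control rats and differed by -0.43, and Sparcl1 and Fbln1 differed by 0.16 and 0.29. Receptors of matricellular proteins were 7 lower and 5 higher of 12, and 4 lower and 8 higher without Telmisartan 302. Itgam, an integrin chain of myeloid cells, differed by -0.55 and Cd36, a receptor of thrombospondin-1, by -0.49, while Cd47, another thrombospondin receptor, differed by 0.35. Of the angiotensin receptor genes only Agtr1a, a gene of the type 1 receptor that telmisartan blocks, was measured. It was at -0.82 over the reference in control rats, with a difference of 0.13 (limma adjusted p = 0.981). Agtr1b and Agtr2 were not among the genes tested.

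Among genes with a gene symbol, those whose log2 ratios followed a member most closely over the 8 rats were found. The measure was the root mean square of the differences of centred values, and genes without a symbol were not ranked. For Ccn2 these were Tnfrsf11b at 0.238, Ccn5 at 0.243 and Egr1 at 0.253. The root mean square of the centred values of Ccn2 itself was 0.56 over the 8 rats, which includes the difference between the groups. For Thbs2 they were Egr2, Snx10 and C5ar1 at 0.251, 0.290 and 0.295. For Ccn1 they were Ldoc1, Stt3a and Testin at 0.177, 0.211 and 0.211. For Ltbp1 they were Rel, Has1 and Atf5 at 0.182, 0.188 and 0.204, and for Postn Crabp2, Mapkbp1 and Abcb10 at 0.127, 0.135 and 0.137. All are descriptions over the same 8 arrays.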

How the data were processed

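Each 2-colour Agilent array gave mean and median local background intensity per spot and channel, deposited by the authors as scanner output of Agilent Feature Extraction 9.1, per the file headers. The deposited log10 ratio of the scanner software and the deposited value table, also log10 ratios, were used as alternatives, and the deposited outlier, saturation and background flags were read. The authors' further normalisation was not given in the sources used here.

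Intensities were corrected with normexp (offset 50) and normalised by a loess curve for each array, on which control spots had weight 0. For the normalised Cy5 and Cy3 intensities, brightness was then also scaled between arrays (limma Aquantile), which leaves the ratios unchanged. The alternative with the Cy5 channel alone used quantile normalisation without the loess step. Outlier spots were left out, saturated spots were kept, and spots of a probe were averaged. A probe was kept if its Cy5 signal was well above background on 4 or more of the 8 arrays. This filter passed 27559 probes, and those without a value on some array were then dropped. The brightest of several remaining probes stood for its gene, which left 23205 genes. Groups of 4 rats were compared with limma 3.58.1 in R 4.3.3 (lmFit and eBayes, two-sided), p-values were adjusted over all genes by the Benjamini-Hochberg method, and the script was tested on simulated data. The number of rats limits the precision. Gene names come from the files, updated through a RefSeq table. From the pathway and marker lists, up to 3 genes each were named by smallest unadjusted p, together with Tgfbi, Tgfbr1, Tgfbr2, Smad7, Egr1, Acta2 and Agtr1a. The 3 genes with a gene symbol nearest in pattern to a member were also named. One gene of the target list and one probe sequence are not reported here. The members and lists were chosen with earlier results of these data known. Alternatives covered background correction, scaling, the Cy5 channel alone, filters, probe choice, slide, variance model and each rat left out.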

Additional observations from a re-analysis of the deposited data

How the results depend on the processing

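Over 25 alternatives Ccn2 (-1.12 to -0.66), Ltbp1 (-0.94 to -0.63), Thbs2 (-1.30 to -0.55), Ccn1 (-0.77 to -0.18), Postn (-0.72 to -0.08) and Tgfb1 (-0.54 to -0.02) kept their direction. Ccn2 and Ltbp1 had an unadjusted limma p under 0.05 in 25 of them, Thbs2 in 24, Ccn1 in 21, Postn in 15 and Tgfb3 in 3. These settings are not independent, so the counts overstate how many separate checks were made. Scaling brightness between arrays after loess left every ratio as reported, and the scanner and deposited log ratios were nearly the same values. Filters left the ratios of the members tested unchanged, and probe choice left those of members with 1 probe unchanged. The smallest adjusted p of any member was 0.279. Slide 1 alone left 2 members lower at an unadjusted p under 0.05, and slide 2 alone, with as many rats, left 5. Tgfb2 was at -0.025 with median centring, -0.082 in the Cy5 channel alone and -0.063 on slide 1, and between -0.081 and 0.15 with a rat left out. With the scanner or the deposited log ratios it was 0.64, with a standard error of 0.46. Tgfb3 was at -0.14 on slide 1, and the cause was not tested. Levels with median centring were 0.15 for Ccn2, 0.60 for Ltbp1 and 0.59 for Postn, each below the median of probes of similar brightness. With a rat left out, 0 to 1 gene passed the adjusted threshold, 1 of them without Control 102 and 1 without Telmisartan 303, none a member. The number of all genes lower at an unadjusted p under 0.05 was 482 as reported. It was 313 with median centring, 318 in the Cy5 channel alone, 218 on slide 1 and 1278 with array weights. With no filter it was 903 of 35300 genes, and with both channels detected on all arrays 254 of 15482. It was 1236 without Control 103, 887 without Telmisartan 305, 270 without Telmisartan 306 and 1224 without Control 103 and Telmisartan 302, while 4 to 5 members were lower at that p in each of the alternatives other than slide 1. The share of all genes with a lower mean was 50.6% with loess, 40.2% with median centring and 43.2% in the Cy5 channel alone. Leaving out Control 103 and Telmisartan 302 together, the dimmer probes and the gene lists under other settings were chosen after seeing the data. No paired analysis was possible because the groups share no rat numbers. Brightness limits Thbs1 and Tgfb2.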
